A study of Mus musculus with 4 samples.

Results

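Hepatocyte identity is set by a small circuit of transcription factors and nuclear receptors, and 9 genes of that circuit were examined here: Hnf4a, Cebpa, Foxa2, Nr1h4, Nr1i2, Nr1i3, Nr5a2, Esrrg and Tbx3. They were chosen by symbol, each matched 1 row of the gene list, and together they are 9 of the 32285 genes counted. Their raw transcript counts were summed per library in hepatocyte-like nuclei and in 4 other classes of nuclei defined by markers that include none of the 9.

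Hnf4a, Cebpa and Foxa2 encode DNA-binding factors that establish and keep the hepatocyte program, and Tbx3 encodes a T-box repressor that is a target of Wnt signalling at the central vein. Nr1h4 encodes the bile acid receptor FXR, which lowers bile acid synthesis and raises bile acid export. Nr1i2 and Nr1i3 encode PXR and CAR, receptors for drugs and other foreign compounds that induce cytochrome P450 genes. Nr5a2 encodes LRH-1, an orphan receptor that supports bile acid synthesis genes, and Esrrg encodes an orphan receptor of the estrogen-related family that acts on energy metabolism. Most of these receptors bind AGGTCA half-sites, several of them together with RXR.

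The study profiled single nuclei from fresh-frozen livers of male mice by droplet 3' RNA sequencing, with paraformaldehyde added to the homogenate. All mice received DDC, a porphyrinogenic agent that causes cholestatic injury with a ductular reaction, for 4 weeks starting at 10 to 11 weeks of age. The WT group and the CKO group have 2 libraries each. CKO mice lack Rbpj, the DNA-binding effector of Notch signalling, in hepatic progenitor cells. The title and labels do not name the Cre driver, and there is no library from mice without DDC. Nor do they say whether replicates are separate animals, so p-values measure only the spread between these libraries, which may be technical.

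The question the design poses for these genes is whether their levels differ between CKO and WT, and in which cells. For 4 of the receptors the region upstream of the start site is shown, as examples with the nuclear receptor half-site (Nr1h4 and Nr5a2) and without it (Nr1i2 and Nr1i3). Each is the 250 bases before the first start site listed by RefSeq on GRCm38.p6, written 5′ to 3′ on the gene's strand. The positions are chr10:89506659-89506908 (minus strand) for Nr1h4, chr1:136960449-136960698 (minus) for Nr5a2, chr16:38294825-38295074 (minus) for Nr1i2 and chr1:171213720-171213969 (plus) for Nr1i3. Capitals mark AGGTCA, the nuclear receptor half-site, or its reverse complement TGACCT.
Nr1h4: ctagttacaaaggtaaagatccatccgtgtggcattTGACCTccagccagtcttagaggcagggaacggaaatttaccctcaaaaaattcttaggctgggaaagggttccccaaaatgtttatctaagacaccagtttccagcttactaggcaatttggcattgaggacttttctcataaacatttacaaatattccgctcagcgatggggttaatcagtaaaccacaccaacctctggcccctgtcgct
Nr5a2: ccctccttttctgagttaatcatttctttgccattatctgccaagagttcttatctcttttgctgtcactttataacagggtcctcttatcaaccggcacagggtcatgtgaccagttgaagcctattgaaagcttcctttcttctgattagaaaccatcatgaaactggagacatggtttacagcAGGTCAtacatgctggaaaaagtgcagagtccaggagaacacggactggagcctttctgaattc
Nr1i2: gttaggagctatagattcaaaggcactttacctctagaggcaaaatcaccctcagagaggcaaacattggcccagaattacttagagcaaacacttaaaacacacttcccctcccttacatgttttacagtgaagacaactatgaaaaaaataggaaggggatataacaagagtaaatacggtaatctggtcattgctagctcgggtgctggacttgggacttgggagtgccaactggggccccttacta
Nr1i3: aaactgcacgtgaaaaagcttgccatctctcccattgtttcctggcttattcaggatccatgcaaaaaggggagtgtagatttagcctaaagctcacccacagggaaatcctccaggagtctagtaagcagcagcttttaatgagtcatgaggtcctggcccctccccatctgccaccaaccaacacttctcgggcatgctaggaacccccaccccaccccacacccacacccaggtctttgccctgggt
The Nr1h4 window holds the half-site on its minus strand, beginning 214 bases before the start, and the Nr5a2 window holds it on its plus strand, 64 bases before the start. No other window of the members with a RefSeq entry holds it, the second Nr5a2 window and the 4 Esrrg windows included, and 14.02% of 32851 promoters of the same length do. Both strands were also searched for CAAGGTCA (the extended half-site of Nr5a2 and Esrrg, which contains AGGTCA, in 1.33% of promoters), CAAAGTCCA (an Hnf4a site, 0.384%), TGTTTAC (forkhead, 3.17%), AGGTGTGA (T-box, 1.12%) and ATCAAAG (TCF/LEF, 3.21%), and none was in a member's window. The inverted repeat of the half-site bound by Nr1h4 with RXR (in 0.00609% of promoters) and the Hnf1 palindrome (0.00913%) were not found in a member's window either. Tbx3 was not in the promoter table.

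On GRCm38 with the GENCODE vM21 annotation, all 9 are protein-coding genes. Hnf4a lies at chr2:163506808-163572910, Foxa2 at chr2:148042877-148046969, Cebpa at chr7:35119293-35121928 and Tbx3 at chr5:119670669-119684724. The receptors lie at chr10:89454234-89533585 (Nr1h4), chr16:38248323-38294824 (Nr1i2), chr1:171213970-171220701 (Nr1i3), chr1:136842571-136960448 (Nr5a2) and chr1:187608791-188214885 (Esrrg). The Nr1h4 window shown above lies inside the annotated gene. Antisense or opposite-strand genes overlap Hnf4a (Hnf4aos), Cebpa (Gm45091), Nr1i3 (Tomm40l), Esrrg (Gm36388, Gm37929 and 9330162B11Rik) and Tbx3 (Tbx3os1). The strand setting of the counting is not given in the sources used here, so the values of these 5 genes may hold reads of those neighbours. On the same strand, Gm25881 overlaps Hnf4a and Gm38315 overlaps Esrrg, whatever the strand setting.

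The libraries held 16000 and 6480 barcodes in WT and 16000 and 5184 in CKO, with 45620141, 13914845, 38003108 and 12261329 UMIs. Here a UMI is 1 counted transcript molecule, and CPM is UMIs per 1000000 UMIs of the class. The marker rules named 11020 of 43664 barcodes and left 74.8% unnamed. Library pairs shared 19 to 114 barcode sequences. Hepatocyte-like nuclei numbered 1527 and 654 in WT and 816 and 876 in CKO, cholangiocyte-like 1315, 240, 339 and 21 in the same order, endothelial-like 1531, 253, 804 and 154, mesenchymal-like 604, 141, 343 and 70, and macrophage-like 729, 63, 480 and 25. Mitochondrial transcripts in hepatocyte-like nuclei made up 0.61%, 0.18%, 1.79% and 0.30% of UMIs, so CKO replicate 1 stood apart. Rbpj itself was at 80.0 and 71.7 CPM in cholangiocyte-like nuclei of WT and at 83.4 and 41.9 CPM in CKO, the last from 2 UMIs, and in hepatocyte-like nuclei at 68.4, 48.0, 63.3 and 45.2 CPM. The groups overlapped in hepatocyte-like nuclei, and in cholangiocyte-like nuclei 1 CKO library lay above and 1 below both WT libraries. These 3' tags may lie outside the deleted part, so this does not check the deletion.

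Hepatocyte-like nuclei had 3000 or more UMIs and at most 0.2% of UMIs from all nonparenchymal marker lists. All 12 hepatocyte markers were detected in each library, at 1.54% to 2.01% of UMIs. The same list made up 1.22% to 1.63% in cholangiocyte-like, 1.66% to 2.28% in endothelial-like, 1.29% to 1.89% in mesenchymal-like and 1.43% to 2.12% in macrophage-like nuclei. In the 10% of barcodes with the fewest UMIs it made up 2.22% to 2.82%. Its share therefore does not set hepatocyte-like nuclei apart, and the class rests on depth and few other markers. Cholangiocyte markers summed to 0.0134% to 0.0397% of UMIs in hepatocyte-like nuclei, endothelial to 0.0129% to 0.0273%, mesenchymal to 0.00802% to 0.0181% and macrophage to 0.0052% to 0.0307%. Barcodes of 3000 or more UMIs just inside the marker limit (0.15% to 0.2%) numbered 407, 41, 224 and 17 in the same library order, and those just outside (0.2% to 0.25%) 255, 12, 185 and 5. Hepatocyte-like barcodes just above the UMI limit (3000 to 3300) numbered 116, 110, 128 and 154, and unnamed barcodes just below it (2700 to 3000) 139, 121, 150 and 198.

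Of the 9 genes, 7 were higher in hepatocyte-like than in every other class but for 1 exception each at most. Hnf4a, Nr1i2, Nr1i3 and Tbx3 were higher against all 4 classes, Nr1h4 was lower than in mesenchymal-like nuclei, and Nr5a2 did not pass the test against cholangiocyte-like nuclei. Esrrg was higher than in 3 classes but lower than in endothelial-like nuclei. Cebpa and Foxa2 set hepatocyte-like nuclei apart little. In edgeR quasi-likelihood tests of the sums with library as a term, 6 of 9 were higher and 0 lower than in cholangiocyte-like nuclei, where 49.4% of 11461 genes were called (25.2% higher and 24.2% lower) at a Benjamini-Hochberg adjusted p under 0.05. Against endothelial-like nuclei 6 were higher and 2 lower (62.9% of genes called, 30.2% higher and 32.7% lower). Against mesenchymal-like nuclei 7 were higher and 1 lower (53.2%, 26.1% and 27.2%), and so they were against macrophage-like nuclei (55.6%, 28.5% and 27.1%). RLE scaling in place of TMM moved the median log2 difference of all genes by −0.15, −0.12 and −0.10 against cholangiocyte-like, mesenchymal-like and macrophage-like nuclei. In the first of these the split of calls went from 2889 higher and 2773 lower to 2268 and 3595. The members' directions held under it.

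**Figure D1:**
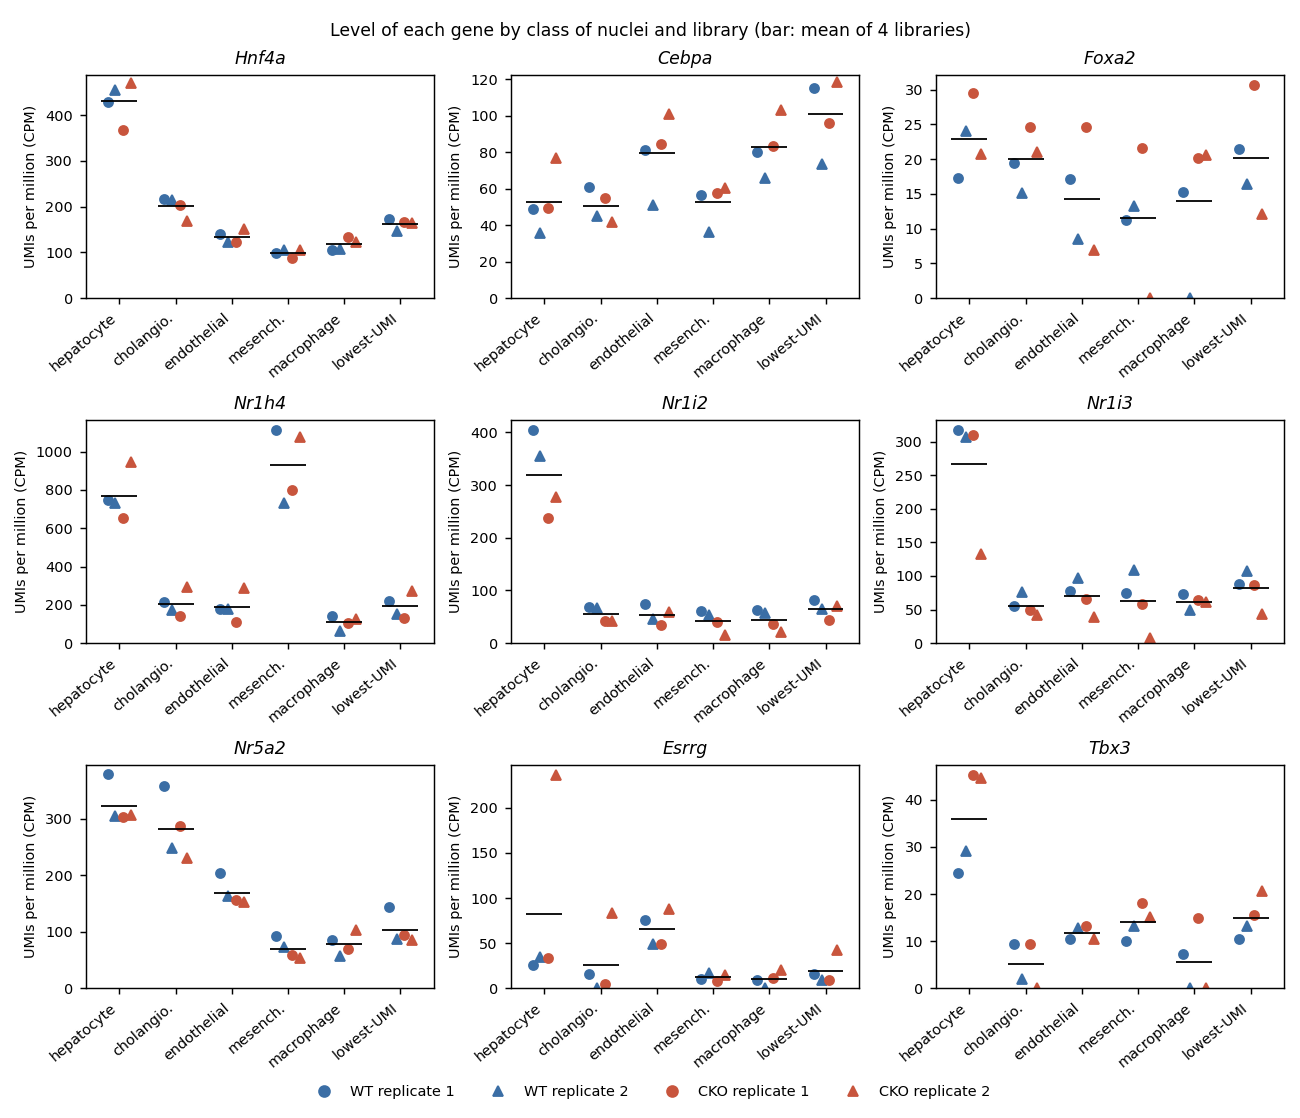
Level of each of the 9 genes (CPM, linear axis from 0), by class of nuclei and in the 10% of barcodes with the fewest UMIs. Points are the 4 libraries (circles replicate 1, triangles replicate 2, blue WT, red CKO) and bars are their means; Nr1h4 in mesenchymal-like nuclei lies in the range of hepatocyte-like nuclei or above it, and Esrrg is highest in the hepatocyte-like nuclei of CKO replicate 2.

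Droplets of a liver preparation also carry free hepatocyte RNA. Secreted hepatocyte transcripts made up 1.86% to 2.59% of UMIs in hepatocyte-like nuclei, 2.60% to 4.01% in cholangiocyte-like, 3.53% to 5.13% in endothelial-like nuclei and 4.85% to 6.28% in the 10% of kept barcodes with the fewest UMIs. For each gene, the level in those lowest barcodes was therefore scaled by the ratio of secreted shares, to give the level a class would show if its UMIs of the gene came with its secreted transcripts. The lowest barcodes are themselves kept barcodes and may hold nuclei. Levels below are in CPM in the order WT replicate 1, WT replicate 2, CKO replicate 1, CKO replicate 2, and log2 differences are hepatocyte-like minus the other class, with the standard error (SE).

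Hnf4a, a receptor-family factor without which hepatocytes lose their character, was at 428, 455, 368 and 470 CPM in hepatocyte-like nuclei (430.2 ± 45.0, SD, n = 4). In cholangiocyte-like nuclei it was at 218, 215, 203 and 168 CPM, 1.60 to 2.49 times the scaled level of the lowest barcodes. No library of either class overlapped the other class. Endothelial-like (123 to 150 CPM), macrophage-like (106 to 134 CPM) and mesenchymal-like nuclei (87.3 to 106 CPM) lay at 0.78 to 1.12 times the scaled level. The log2 difference was 1.07 (SE 0.13, adjusted p = 2.85e-09 by edgeR) against cholangiocyte-like and 1.53 to 2.01 against the other 3 classes.

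Tbx3 was at 24.4, 29.2, 45.2 and 44.6 CPM in hepatocyte-like nuclei and at no more than 18.1 CPM in any library of the other 4 classes. Its log2 difference ran from 1.23 (SE 0.26, against mesenchymal-like) to 1.92 (SE 0.25, against cholangiocyte-like), with edgeR adjusted p of 1.26e-04 or less. Foxa2, a pioneer factor shared by hepatocytes and bile duct cells, was sparse: 17.3, 24.0, 29.5 and 20.8 CPM in hepatocyte-like nuclei from 462 UMIs and 19.4, 15.1, 24.6 and 21.0 CPM in cholangiocyte-like nuclei. Those classes overlapped, with a log2 difference of 0.23 (SE 0.22, edgeR adjusted p = 0.402). Foxa2 passed only against mesenchymal-like nuclei (0.63, SE 0.27, edgeR adjusted p = 0.0475). That call was lost with RLE scaling (edgeR adjusted p = 0.106) and against the mesenchymal-like nuclei with the lower secreted transcript shares (0.197). It was also lost on leaving out any library but WT replicate 2.

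Cebpa, a basic leucine zipper factor of hepatocytes and myeloid cells, was lower in hepatocyte-like than in endothelial-like and macrophage-like nuclei. It was at 48.8, 36.0, 49.7 and 76.9 CPM in hepatocyte-like nuclei, at 81.2, 50.9, 84.7 and 101 CPM in endothelial-like nuclei and at 73.7 to 119 CPM in the lowest barcodes. Within every library the hepatocyte-like value was the lowest of the 3. The log2 difference was −0.77 (SE 0.13, edgeR adjusted p = 3.69e-06) against endothelial-like and −0.72 (SE 0.15, adjusted p = 1.02e-04) against macrophage-like nuclei, whose secreted shares were higher too. Measured against the scaled level, Cebpa stood at 1.10 to 1.57 in hepatocyte-like, 0.92 to 1.08 in endothelial-like and 1.07 to 1.26 in macrophage-like nuclei. The part of free RNA in the order of the classes was not tested for Cebpa. Among macrophage-like nuclei with the lower secreted shares the difference was −0.42 (adjusted p = 0.0615).

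Nr1h4, the bile acid receptor gene, had its highest value outside hepatocyte-like nuclei. It was at 747, 734, 653 and 948 CPM in hepatocyte-like and at 1115, 733, 800 and 1077 CPM in mesenchymal-like nuclei, the latter from 1987, 221, 706 and 143 UMIs. The mesenchymal-like value was the higher in 3 of 4 libraries and about equal in WT replicate 2. It was 5.21 to 8.90 times the scaled level of the lowest barcodes, against 8.52 to 12.3 times in hepatocyte-like nuclei. The log2 difference, hepatocyte-like minus mesenchymal-like, was −0.40 (SE 0.13, edgeR adjusted p = 0.00962), and it was not past the threshold without WT replicate 1 (adjusted p = 0.167), without WT replicate 2 (0.0555) or with no filter on low counts (0.131). Cholangiocyte-like nuclei were at 215, 174, 140 and 293 CPM, endothelial-like at 176, 180, 113 and 286 CPM and macrophage-like at 142, 65.8, 105 and 124 CPM, all well below and overlapping one another.

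A comparison of each nonparenchymal class with the mean of the other 3 was added after these levels had been seen. Nr1h4 was 2.63 higher on the log2 scale in mesenchymal-like nuclei (SE 0.10, edgeR adjusted p = 5.06e-33, higher in 4 of 4 libraries). Of 8 members tested there, 1 was higher and 3 lower (23.6% of 9773 genes called, 12.7% higher and 10.9% lower).

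Nr1i2, the PXR gene, was at 405, 354, 238 and 277 CPM in hepatocyte-like nuclei and at no more than 73.7 CPM in any library of the other 4 classes. Its log2 differences were 2.59 (SE 0.15) against cholangiocyte-like, 2.47 (SE 0.14) against endothelial-like, 2.66 (SE 0.16) against mesenchymal-like and 2.68 (SE 0.16) against macrophage-like nuclei, with edgeR adjusted p of 5.43e-17 or less. Nr1i3, the CAR gene, was at 317, 307, 311 and 133 CPM and at no more than 109 CPM in the other classes. CKO replicate 2 was low for Nr1i3, yet within that library the hepatocyte-like value was still the highest. Its log2 differences ran from 1.86 (SE 0.14, endothelial-like) to 2.49 (SE 0.16, cholangiocyte-like). In the classes other than hepatocyte-like, both genes lay between 0.23 and 1.93 times the scaled level of the lowest barcodes.

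**Figure D2:**
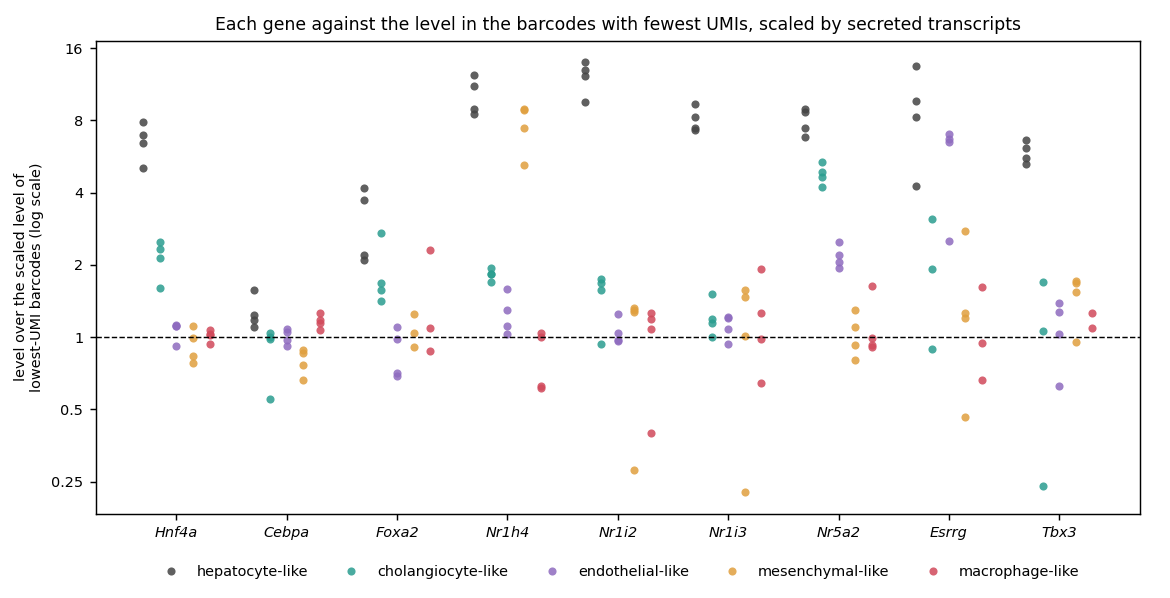
Ratio of each gene's level in a class to its level in the barcodes with fewest UMIs after scaling by secreted hepatocyte transcripts (vertical log axis; dashed line at 1; 1 point per library, colours are classes; sums with 0 UMIs are not drawn). Nr1h4 in mesenchymal-like nuclei, Nr5a2 in cholangiocyte-like nuclei and Esrrg in endothelial-like nuclei lie above 1 in all 4 libraries, while Nr1i2 and Nr1i3 do so by a wide margin in hepatocyte-like nuclei. Also above 1 in all 4 are Hnf4a, Foxa2, Nr1h4 and Nr1i3 in cholangiocyte-like, Nr1h4 and Nr5a2 in endothelial-like and Cebpa in macrophage-like nuclei.

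Nr5a2, the LRH-1 gene, was shared with cholangiocyte-like nuclei. It was at 380, 305, 303 and 306 CPM in hepatocyte-like and at 359, 249, 287 and 231 CPM in cholangiocyte-like nuclei, where it was 4.20 to 5.38 times the scaled level. The hepatocyte-like value was the higher in 4 of 4 libraries, but the log2 difference of 0.23 (SE 0.12) did not pass (edgeR adjusted p = 0.0963). With no filter on low counts it was 0.36 and passed. Endothelial-like nuclei followed at 204, 163, 156 and 154 CPM (log2 difference 0.80, SE 0.11, edgeR adjusted p = 1.44e-07), 1.94 to 2.49 times the scaled level. Mesenchymal-like (52.7 to 92.0 CPM) and macrophage-like nuclei (57.6 to 103 CPM) were lowest and overlapped. Against the mean of the other nonparenchymal classes, Nr5a2 was 1.52 higher in cholangiocyte-like nuclei (SE 0.10, edgeR adjusted p = 2.55e-20) and 0.62 higher in endothelial-like nuclei (SE 0.11, adjusted p = 3.10e-06). In that comparison 2 of 8 members were higher and 4 lower in cholangiocyte-like nuclei (44.6% of genes called, 22.2% higher and 22.4% lower).

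Esrrg was at 25.3, 35.0, 33.8 and 236 CPM in hepatocyte-like nuclei and at 75.3, 48.8, 49.2 and 87.3 CPM in endothelial-like nuclei. The endothelial-like value was the higher in 3 libraries and the lower in CKO replicate 2. The log2 difference was −0.56 (SE 0.25, edgeR adjusted p = 0.0462), although the mean CPM over libraries was higher in hepatocyte-like nuclei, 82.6 ± 102 against 65.1 ± 19.3 (SD, n = 4). The call was lost without WT replicate 2 (adjusted p = 0.145) or CKO replicate 1 (0.0846), and without WT replicate 1 the difference was 0.0084. Without CKO replicate 2 it was −1.07 (adjusted p = 2.68e-04). Against the mean of the other nonparenchymal classes, Esrrg was 2.59 higher in endothelial-like nuclei (SE 0.19, edgeR adjusted p = 7.90e-19), where 3 of 8 members were higher and 1 lower (31.8% of genes called, 15.8% higher and 16% lower). In macrophage-like nuclei 0 were higher and 3 lower (34.3% called, 14.4% higher and 19.9% lower). Macrophage-like and mesenchymal-like nuclei had 0 to 20.6 CPM. Cholangiocyte-like nuclei were at 15.9, 0, 4.74 and 83.8 CPM, from 67, 0, 5 and 4 UMIs. A split of endothelial-like nuclei was chosen after these levels had been seen. In the 1354, 200, 666 and 124 endothelial-like nuclei with a UMI of Stab2, a marker of sinusoidal endothelium, Esrrg was at 81.0, 50.5, 45.3 and 94.8 CPM, and in those without one at 30.9, 41.9, 68.4 and 55.2 CPM. These subsets had no common order over the libraries, and the second rests on 13, 4, 21 and 3 UMIs.

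Shares of nuclei with at least 1 UMI were compared after thinning to a common depth. At 3000 UMIs per nucleus, Nr1h4 was detected in 84.2%, 84.4%, 72.8% and 91.9% of hepatocyte-like nuclei and Hnf4a in 68.4%, 69.3%, 60.9% and 71.6%. Nr1i2 was detected in 64.4%, 61.6%, 43.4% and 53.1% and Nr1i3 in 54.2%, 52.6%, 52.2% and 29.6%. Esrrg was detected in 5.8%, 7.8%, 7.7% and 37.2%. CKO replicate 2 was thus the lowest library for Nr1i3 and the highest for Esrrg, Nr1h4 and Hnf4a. At 1000 UMIs, Nr1h4 had a UMI in 63.6%, 45.4%, 51.6% and 67.1% of mesenchymal-like, 48.3%, 49.2%, 39.8% and 57.5% of hepatocyte-like and 11.9%, 3.2%, 10.2% and 12.0% of macrophage-like nuclei, which serve as background. Nr5a2 had one in 27.2%, 22.5%, 21.5% and 19.0% of cholangiocyte-like and 30.2%, 23.7%, 24.3% and 26.1% of hepatocyte-like nuclei. Esrrg had one in 6.9%, 4.7%, 4.6% and 6.5% of endothelial-like and 1.0%, 0%, 1.0% and 0% of macrophage-like nuclei.

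Within hepatocyte-like nuclei, 3 of the 9 genes differed along the axis from portal to central vein, and all 3 were higher toward the central side: Esrrg, Tbx3 and Nr1i3. Nuclei with 10 or more UMIs from 8 pericentral genes (such as Glul, Cyp2e1 and Oat) and 8 periportal genes were ranked in each library by the pericentral share, and the highest-ranked nuclei (452, 189, 232 and 276, the third of each library nearest the pericentral end) were compared with an equal number from the lowest, with library as a term. Each such group is a range of a score, not a cell type. By edgeR, 641 of 9877 genes were called, which is 6.49%, and 3.16% were higher on the pericentral side.

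Esrrg rose from 6.03 to 58.2 CPM in WT replicate 1, from 9.25 to 79.2 in WT replicate 2, from 14.3 to 65.2 in CKO replicate 1 and from 88.4 to 415 in CKO replicate 2. The log2 difference was 2.50 (SE 0.14, 5.66-fold, edgeR adjusted p = 2.39e-14), with the pericentral-type value higher in 4 of 4 libraries. The periportal-type nuclei of CKO replicate 2 were above the pericentral-type nuclei of the other 3 libraries. Tbx3 rose from 12.1 to 43.7, 17.5 to 47.1, 25.9 to 60.5 and 28.9 to 76.5 CPM, a log2 difference of 1.51 (SE 0.15, 2.85-fold, edgeR adjusted p = 8.46e-09, 4 of 4 libraries). No pericentral-type value of Tbx3 overlapped a periportal-type value. Nr1i3 went from 256 to 413, 284 to 363, 322 to 314 and 81.8 to 192 CPM (0.52, SE 0.11, 1.43-fold, edgeR adjusted p = 0.00182). It was higher on the pericentral side in 3 of 4 libraries and about equal in CKO replicate 1.

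The other 6 did not pass by edgeR. Cebpa was higher on the pericentral side in 4 of 4 libraries (log2 difference 0.31, SE 0.12, adjusted p = 0.138), while Nr1h4 (−0.17, SE 0.07, adjusted p = 0.191) and Hnf4a (−0.13, SE 0.08, 0.422) were lower in 4 of 4. Nr5a2 (−0.18), Nr1i2 (−0.14) and Foxa2 (−0.25) were lower in 3 of 4. Secreted transcripts were at 1.97%, 2.03%, 2.27% and 2.49% of UMIs in the pericentral-type and 1.68%, 1.82%, 1.89% and 2.61% in the periportal-type nuclei, and mitochondrial transcripts at 0.67%, 0.21%, 1.97% and 0.30% against 0.52%, 0.15%, 1.47% and 0.30%. Their part in these differences was not tested.

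**Figure D3:**
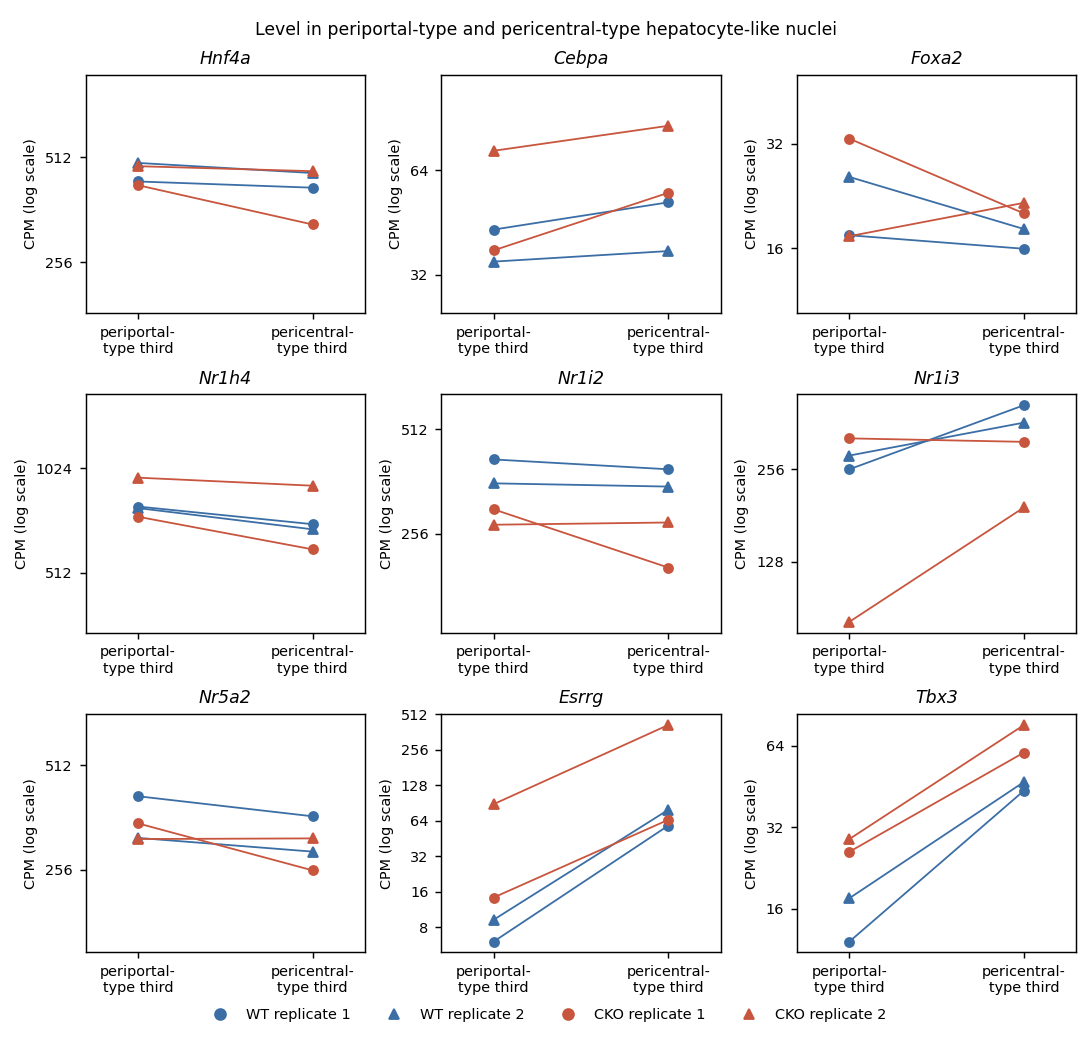
Level (CPM, vertical log axis) of each gene in the periportal-type and the pericentral-type range of hepatocyte-like nuclei; each line joins the 2 values of 1 library (circles replicate 1, triangles replicate 2, blue WT, red CKO). All 4 lines climb steeply for Esrrg and Tbx3, and 3 of 4 climb for Nr1i3.

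Genes under these factors were tested along the same axis. Of the pericentral list, 8 genes were in the score and are left out. Both tested ones passed: the Wnt target Axin2 (log2 difference 1.66, SE 0.24) and Lgr5, which encodes an R-spondin receptor (3.63, SE 0.13). Of 14 drug metabolism genes under Nr1i2 and Nr1i3, 4 were higher on the pericentral side by edgeR (Cyp2c37 0.97, Cyp2c29 0.79, Por 0.56, Cyp3a11 0.40) and 2 lower (Cyp3a13 −0.52, Cyp2b10 −0.39). Their median was 0.27, against 0.00467 over all genes. Of 11 bile acid genes, Cyp7a1, the rate-limiting enzyme of bile acid synthesis, was higher (1.15, SE 0.09, edgeR adjusted p = 3.59e-11) and Scarb1 and Fgfr4 were lower (−0.29 and −0.43). Among 14 genes under Hnf4a, Cebpa and Foxa2 none was higher, and G6pc (−0.64), Cps1 (−0.40) and Tat (−0.35) were lower. Of 20 other liver factors, 1 was higher and 2 were lower, the lower ones being Onecut1 (−0.71) and the coactivator gene Ppargc1a (−0.54). Of 7 energy genes tested, Pdk4 was higher (1.37) and Ppargc1a lower.

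Between genotypes, none of the 9 genes passed the test in hepatocyte-like nuclei, and neither did any other gene: edgeR called 0 of 12996 genes, which is 0%. An unadjusted p under 0.05 was reached by 212 genes (1.63%), and 2 genes passed by DESeq2. The edgeR adjusted p was 0.99975 for each member. Directions below are CKO minus WT, and levels are in CPM in the order given above.

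Tbx3 was at 24.4 and 29.2 CPM in WT and 45.2 and 44.6 in CKO, so both CKO libraries lay above both WT libraries (log2 difference 0.82, SE 0.24, unadjusted p = 0.0212). The same order held in both ranges, with 12.1 and 17.5 against 25.9 and 28.9 CPM in periportal-type nuclei and 43.7 and 47.1 against 60.5 and 76.5 CPM in pericentral-type nuclei. These ranges were ranked within each library and are not matched between genotypes. Their median pericentral share was 6.67%, 4.35%, 15.8% and 13.3% in periportal-type and 36.4%, 23.8%, 56.9% and 52.1% in pericentral-type nuclei. Both CKO ranges thus lay nearer the pericentral end, and Tbx3 at a matched share was not tested. Cebpa was also higher in both CKO libraries, by little in one of them (48.8 and 36.0 against 49.7 and 76.9 CPM, log2 difference 0.67, SE 0.33, unadjusted p = 0.102). Over all tested genes, 7.63% were higher in both CKO libraries and 17.2% lower in both. Beside Tbx3, the share of zone-list UMIs from pericentral genes was 21.9% and 13.9% in WT and 35.0% and 31.5% in CKO. Of the 12 pericentral genes, 8 are also in the zone lists, so their values are not independent of that share. Of these 12 genes, 9 were higher in both CKO libraries, with a median log2 difference of 0.81 against 0.01 over all genes. None passed by edgeR. Their part in the Tbx3 values was not tested. Examples are Rgn (76.7, 63.9, 132 and 167 CPM, 1.18, SE 0.25) and Oat (13.1, 11.1, 62.0 and 26.1 CPM, 1.92, SE 0.43). More nuclei of a type and more RNA per nucleus cannot be told apart in such sums.

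Esrrg had the widest gap, and 1 library carried it. It was at 25.3 and 35.0 CPM in WT and 33.8 and 236 CPM in CKO, from 238, 114, 159 and 931 UMIs. CKO replicate 1 lay between the WT libraries. The log2 difference was 2.29 (SE 0.998, edgeR unadjusted p = 0.0745), and within replicate numbers it was 0.41 and 2.73. Without CKO replicate 1 it was 3.14 (edgeR adjusted p = 0.0316), with CKO replicate 2 as the lone CKO library, and without CKO replicate 2 it was 0.18. Without a filter on low counts it was 2.30 (adjusted p = 0.0339). CKO replicate 2 also held the lowest Nr1i3 (133 CPM against 307 to 317), the lowest levels of the cytochrome genes Cyp2b10 (10.7 CPM against 134, 677 and 252) and Cyp2c29 (201 CPM against 1304, 1543 and 2309), and the highest Cyp8b1, the enzyme that makes cholic acid (50.2 CPM against 6.05, 2.15 and 1.27). Cyp2c29 was picked after its values were seen. Over all 14 drug metabolism genes the median log2 difference between genotypes was −0.09, with 6 positive and 8 negative. That median covers both CKO libraries and does not describe CKO replicate 2 alone. Alas1 of the same list was lowest in CKO replicate 1, and most other genes of the list are not reported by library here.

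Nr1i2 was lower in both CKO libraries, at 405 and 354 CPM in WT and 238 and 277 in CKO (log2 difference −0.47, SE 0.24, unadjusted p = 0.111). The remaining members overlapped between genotypes. Nr1i3 was at 317, 307, 311 and 133 CPM (−0.45, SE 0.40, and −0.0048 without CKO replicate 2), Nr1h4 at 747, 734, 653 and 948 (0.20, SE 0.34) and Nr5a2 at 380, 305, 303 and 306 (−0.08, SE 0.22). Hnf4a was at 428, 455, 368 and 470 (0.01, SE 0.29) and Foxa2 at 17.3, 24.0, 29.5 and 20.8 CPM (0.35, SE 0.32).

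**Figure D4:**
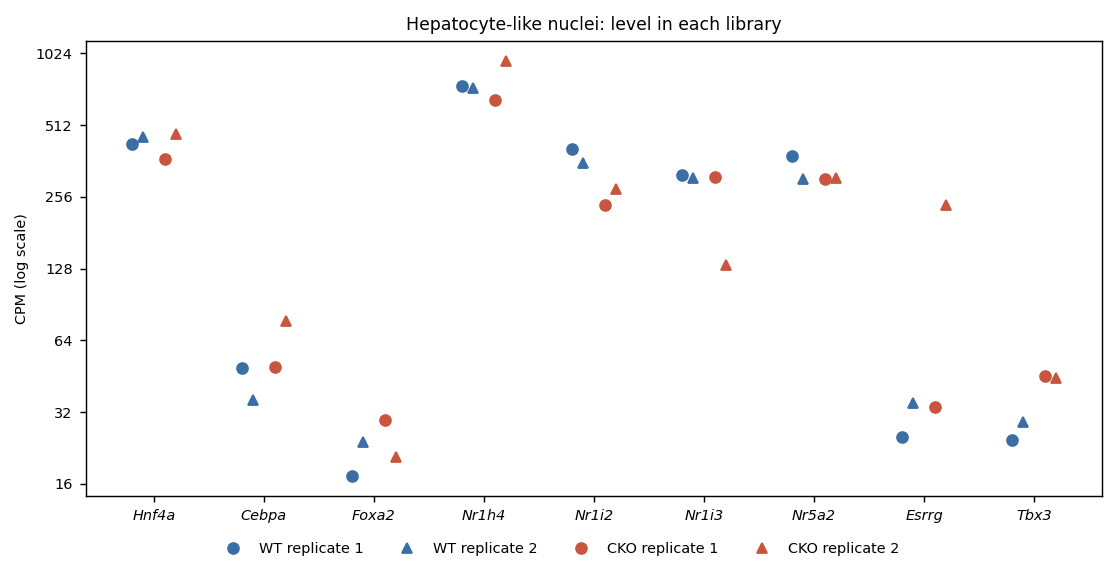
Level (CPM, vertical log axis) of each gene in hepatocyte-like nuclei of the 4 libraries (circles replicate 1, triangles replicate 2, blue WT, red CKO). The CKO libraries lie above both WT libraries for Tbx3 and below both for Nr1i2, and Esrrg is at 236 CPM in CKO replicate 2 alone.

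In the other classes no member passed either. Of the members tested, 0 of 8 passed in cholangiocyte-like nuclei (0.0641% of 9359 genes called by edgeR), 0 of 9 in endothelial-like nuclei (0% of 9907, with 378 at an unadjusted p under 0.05 and 1 called by DESeq2), 0 of 6 in mesenchymal-like nuclei (0% of 7721, with 415 at an unadjusted p under 0.05 and 1 called by DESeq2) and 0 of 7 in macrophage-like nuclei (0.208% of 8187). Their smallest edgeR adjusted p was 0.946, for Nr1i3 in mesenchymal-like nuclei (75.2, 109, 59.0 and 7.53 CPM, log2 difference −0.79, SE 0.47). Nr1h4 in mesenchymal-like nuclei, where it was highest, had a difference of 0.22 (SE 0.36), and Nr5a2 in cholangiocyte-like nuclei one of −0.16 (SE 0.31). Esrrg in endothelial-like nuclei had a difference of 0.16 (SE 0.35). Nr1i2 was lower in both CKO libraries in cholangiocyte-like (68.1, 66.0, 42.6 and 41.9 CPM), mesenchymal-like (60.6, 53.0, 39.7 and 15.1 CPM) and macrophage-like nuclei (62.6, 57.6, 36.0 and 20.6 CPM), where 18.7%, 25.6% and 22.7% of tested genes were. These levels were 0.94 to 1.74, 0.28 to 1.32 and 0.40 to 1.26 times the scaled level of the lowest barcodes. The classes of a library share its free RNA. In endothelial-like nuclei Nr1i2 overlapped between genotypes (73.7, 46.7, 35.0 and 59.3 CPM). Such an order was also seen in other members. Nr1i3 was lower in both CKO libraries in cholangiocyte-like, endothelial-like and mesenchymal-like nuclei. Cebpa was higher in both in endothelial-like, mesenchymal-like and macrophage-like nuclei. Shares of all genes for higher values, and for endothelial-like nuclei, are not reported here. The 21 cholangiocyte-like and 25 macrophage-like nuclei of CKO replicate 2 hold few UMIs of any member. In the mesenchymal-like nuclei of that library, Nr1i3 rests on 1 UMI and Nr1i2 on 2.

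Genes that these factors act on were set beside them in hepatocyte-like nuclei, and none passed by edgeR between genotypes. The median log2 difference was 0.19 for 13 bile acid genes, of which 8 were positive, and −0.09 for 14 drug metabolism genes, of which 6 were. It was 0.35 for 15 genes under Hnf4a, Cebpa and Foxa2, 0.31 for 7 energy genes and 0.23 for 21 other liver factors, of which 15 were positive. Cyp8b1 (2.73, SE 1.60) and Cyp2b10 (−1.67, SE 1.51) had wide errors. CKO replicate 2 stood apart for both genes, and for Cyp2b10 the WT libraries also differed widely from each other. Slc27a5, a bile acid ligase gene, was at 75.3, 54.4, 99.8 and 115 CPM (0.82, SE 0.24), and the heme synthesis gene Alas1 at 879, 1234, 608 and 698 CPM (−0.62, SE 0.35). Ppargc1a, a coactivator of Hnf4a and the estrogen-related receptors, was at 130 and 134 CPM in WT and 51.4 and 56.8 in CKO (−1.21, SE 0.21, unadjusted p = 0.0030, edgeR adjusted p = 0.99975). Of the 15 genes under Hnf4a, Cebpa and Foxa2, 11 had a positive difference, 5 were higher in both CKO libraries and 4 were lower in both, against the 7.63% and 17.2% of all tested genes given above. Pck1 (1141, 950.3, 393 and 684 CPM, −0.85, SE 0.40) and G6pc (259, 308, 117 and 202 CPM, −0.74, SE 0.39), which encode enzymes of gluconeogenesis, were among the 4. In the lists named here, Rxra (0.43, SE 0.37), Onecut1 (0.52, SE 0.45), Slc10a1 (0.63, SE 0.46), Cyp3a13 (0.50, SE 0.22), F9 (0.34, SE 0.20), Gulo (0.76, SE 0.21), Atp5b (0.31, SE 0.20) and Cycs (0.33, SE 0.22) had the other smallest p-values.

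The genes whose levels followed each member most closely over the 20 sums of class and library, among 12038 genes, are given as a description, since the sums of a library share its free RNA and depth. For Nr1h4 they were Cped1 (Pearson r = 0.964), the cadherin gene Cdh2 (0.959) and Arhgap42 (0.942), and for Nr5a2 they were 2900026A02Rik (0.959), Lima1 (0.918) and Rapgef2 (0.909). For Nr1i2 they were Snd1 (0.974), Tesk2 (0.948) and Rnf169 (0.945), and for Nr1i3 Dmxl2 (0.890), Ick (0.885) and Tesk2 (0.882), so Tesk2 stood in both sets. Hnf4a was followed by Chchd3 (0.943), Col18a1 (0.937) and Slc22a23 (0.936), and Tbx3 by Themis (0.957), Mreg (0.928) and Inca1 (0.927). Themis is one of the lymphocyte markers used in the limit on hepatocyte-like nuclei. Esrrg (Numb, 0.805, Mgll, 0.800, and Smarca2, 0.794) and Cebpa (Pltp, 0.785, Sephs2, 0.773, and Glul, 0.765) had no gene as close, and the sparse Foxa2 was followed by Mta1 (0.976) and Zdhhc13 (0.958). Between members, Hnf4a followed Nr1i2 (0.853) and Nr5a2 (0.840) over the sums and Nr1h4 less (0.309).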

How the data were processed

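Raw UMI counts per gene and barcode were deposited by the authors for 4 single-nucleus liver libraries. They were made with Cell Ranger 5.0.1 on mm10, per the submitters' processing notes; filters on barcodes, the handling of introns and the strand setting are not given in the sources used here. The 7 added sequences in the gene lists were left out of sums and tests. Barcodes were classed by marker lists without clustering, and no doublet caller was run. Hepatocyte-like barcodes had 3000 or more UMIs and at most 0.2% nonparenchymal marker UMIs. Other classes needed 1000 or more UMIs, 3 or more of their markers, 0.3% of UMIs from them and 3 times those of every other class, so barcodes with mixed markers stayed unnamed. The 34 lymphocyte-like nuclei, under 20 per library in 3 libraries, were not tested.

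Sums of counts over the nuclei of a class in a library were tested with edgeR 4.0.16 (R 4.3.3; quasi-likelihood test, TMM scaling, filterByExpr, two-sided, Benjamini-Hochberg over all tested genes, adjusted p under 0.05). The scripts were tested on simulated data. Intervals and limits cover counting error only. Alternatives were RLE scaling, DESeq2 1.42.0, no filter, a replicate block, other limits on hepatocyte-like barcodes and leaving out each library. Another kept the nuclei with lower secreted shares in each other class and all hepatocyte-like nuclei. Members, lists and tests were chosen with earlier results of these data known. Beyond the 9 members, the text names the 3 genes of each list with the smallest p between genotypes, list genes called along the zone axis and the 3 genes most like each member by Pearson correlation of log2(CPM + 1) among genes with 20 or more CPM in a sum. Some genes that met this rule are not reported here. Cyp2c29 by genotype lies outside that rule and was named after its values were seen. Replicate libraries differed by more than counting noise (chi-square over degrees of freedom 18.4 in WT and 52.4 in CKO).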

Additional observations from a re-analysis of the deposited data

How the results depend on the processing

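Of 828 member values recomputed under another setting, 762 kept their direction and side of the threshold, 24 fell short of it, 7 newly passed it and 35 changed sign; along the zone axis all 63 kept both. The changes of sign were, with the cause not tested, mostly in small differences between CKO and WT (log2). For Hnf4a in hepatocyte-like nuclei the difference was −0.022 with a minimum of 2000 UMIs and −0.019 with at most 0.1% nonparenchymal marker UMIs. With DESeq2 in cholangiocyte-like nuclei it was −0.053 for Cebpa and 2.31 for Esrrg. In the nuclei below each library's median secreted share it was 0.036 for Nr5a2 and −0.020 for Esrrg in endothelial-like, −0.21 for Hnf4a in mesenchymal-like, and −0.26 for Nr1h4 and −0.33 for Nr5a2 in macrophage-like nuclei. Between classes, Cebpa in hepatocyte-like against cholangiocyte-like nuclei was 0.0027 with no filter. Against the cholangiocyte-like nuclei with the lower secreted shares it was 0.15, with all hepatocyte-like nuclei kept. In the nonparenchymal nuclei with the lower secreted shares, Nr1i2 in mesenchymal-like nuclei was 0.030 and Nr1i3 in macrophage-like nuclei −0.31 against the other nonparenchymal classes. Nr5a2 against cholangiocyte-like nuclei ranged over its alternatives from 0.07 to 0.36. The replicate numbers are shared only as numbers (2 pairs; r = 0.32 across 12996 genes between the WT and CKO differences of replicate 1 minus 2). With the replicate block, calls numbered 0 in hepatocyte-like, endothelial-like and mesenchymal-like nuclei, 14 in cholangiocyte-like and 41 in macrophage-like nuclei, and the difference was −0.011 for Hnf4a in hepatocyte-like, −0.043 for Cebpa in cholangiocyte-like and −0.0014 for Nr1h4 in macrophage-like nuclei.

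Calls between CKO and WT numbered 0 in hepatocyte-like, 6 in cholangiocyte-like, 0 in endothelial-like, 0 in mesenchymal-like and 17 in macrophage-like nuclei. In that order they were 28, 52, 71, 67 and 45 with no filter and 2, 0, 1, 1 and 0 with DESeq2. In nuclei with the lower secreted shares 1 was called in mesenchymal-like and 10 in macrophage-like nuclei. Leaving out 1 library, which leaves a lone library assumed to vary like the others, gave 0 to 98 (49 without CKO replicate 1, 98 without CKO replicate 2), 0 to 59, 0 to 336, 10 to 211 and 0 to 39. It gave 3218 to 6212, 4824 to 7743, 3844 to 6534 and 3790 to 6861 calls for hepatocyte-like against cholangiocyte-like, endothelial-like, mesenchymal-like and macrophage-like nuclei. It gave 2268 to 4889, 1245 to 3275, 1201 to 2504 and 1650 to 3583 for these 4 classes against each other, with the lowest count without WT replicate 1 in each, and 351 to 618 along the zone axis. Member differences that changed sign on leaving out a library ranged as follows. In hepatocyte-like nuclei they ranged from −0.26 to 0.24 for Hnf4a, −0.18 to 0.51 for Nr1h4 and −0.16 to 0.0037 for Nr5a2, and in cholangiocyte-like nuclei from −0.58 to 0.11 for Cebpa, −0.44 to 0.39 for Nr1h4 and −1.24 to 2.67 for Esrrg. In endothelial-like nuclei they ranged from −0.51 to 0.97 for Nr1h4, −0.70 to 0.20 for Nr1i2, −0.10 to 0.014 for Nr5a2 and −0.25 to 0.72 for Esrrg, in mesenchymal-like nuclei from −0.18 to 0.36 for Hnf4a and −0.12 to 0.50 for Nr1h4, and in macrophage-like nuclei from −0.16 to 0.66 for Nr1h4. Esrrg in hepatocyte-like against endothelial-like nuclei ranged from −1.07 to 0.0084, and Hnf4a in endothelial-like nuclei against the other nonparenchymal classes from −0.023 to 0.079. Tests in lymphocyte-like nuclei were not run, since 3 libraries held 1 or 2 such nuclei, and 0 UMIs of a sparse member such as Foxa2 or Tbx3 in the small classes of CKO replicate 2 sets only an upper limit.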

Other observations

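The barcodes that no marker rule named also held transcripts of all 9 genes. Over the 4 libraries Hnf4a was at 171 to 223 CPM in them and Cebpa at 66.4 to 110 CPM, 1.10 to 1.53 and 0.95 to 1.09 times the scaled level of the lowest barcodes. In the 34 lymphocyte-like nuclei, 12 UMIs of Nr1h4, 6 of Hnf4a, 4 of Cebpa and 2 of Esrrg were counted.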
